A study of Caenorhabditis elegans with 12 samples.

Results

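The ugt genes of Caenorhabditis elegans encode UDP-glucuronosyltransferases, membrane enzymes of the endoplasmic reticulum that move a sugar from a UDP-sugar donor onto small lipophilic molecules and so make them easier to excrete. They act after the cytochromes P450 and beside the glutathione S-transferases, and ABC exporters then carry the conjugates out of the cell. Nematodes attach mainly glucose where mammals attach glucuronic acid, and the intestine is their main organ of detoxification. The family is large, and the substrates of most single members are not known, so the members below are ordered by level and by behaviour, with a role given for the one member, ugt-22, for which one was available. Members were the genes whose annotated name is ugt- followed by a number and that had at least 10 counts in 4 or more of the 12 libraries. Of 67 genes with such a name among 46926 genes of the table, 63 met the rule, and all 63 were among the 16637 genes tested.

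RNA was measured in whole worms of 3 strains with 4 libraries each, all labelled as larval stage 4 and grown at 20 °C. Wild type was the N2 strain without a transgene. The TDP-43 strain carried Psnb-1::TDP-43 with the marker Pmyo-2::dsRED, and the TDP-43ΔNLS strain carried Psnb-1::TDP-43(K82A/R83A/K84A), whose substitutions alter the nuclear localization signal, with the marker Pmyo-3::dsRED. The human protein TDP-43 binds RNA, resides chiefly in the nucleus, and forms cytoplasmic deposits in neurons in several degenerative diseases. The snb-1 promoter drives expression in all neurons, whereas the ugt genes were measured here in the RNA of the whole body. The transgene's own transcript was not analysed here. Both transgenic strains also differ from wild type by a fluorescent marker, in the pharynx (myo-2) for one and in body wall muscle (myo-3) for the other, so the transgene and the marker cannot be told apart.

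Of the 12 libraries, 4 stood apart from the other 8 before any strain was compared. Of these, 1 was from wild type (replicate 4), 1 from TDP-43 (replicate 4) and 2 from TDP-43ΔNLS (replicates 3 and 4). In these the mean log2 CPM (read counts scaled by each library's effective size) of a list of 21 oocyte and eggshell genes was 2.02 to 4.07, against 8.08 to 9.34 in the others. The adult cuticle collagen col-19 ranged from 1.24 to 481 CPM in these and from 1569 to 3312 CPM in the rest. For mlt-10, a gene of the molt, the ranges were 65.9 to 180.0 CPM and 7.95 to 63.02 CPM. Replicates of 1 strain thus differed in oocyte and cuticle transcripts, and the counts over the family below are also given without those 4 libraries. Total counts ran from 20671982 to 26910097. Markers of intestine, hypodermis, neurons, body wall muscle and pharynx were detected in every library, with none at 0.

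Levels within the family spanned a wide range. On the scale of CPM per kilobase of exon, which allows genes of unequal length to be compared, member means over 12 libraries ran from 0.262 to 52.4. The highest were ugt-29 at 52.4 CPM per kilobase, ugt-26 at 46.4, ugt-48 at 45.1, ugt-13 at 41.3 and ugt-58 at 33.9. These leaders differed in how steady they were. The highest library exceeded the lowest 17.4-fold for ugt-29, 18.4-fold for ugt-26 and 15.7-fold for ugt-48, against 5.69-fold for ugt-13 and 2.28-fold for ugt-58. Neighbours in this order therefore did not differ beyond their spread over libraries. The 10 members with the largest share held 51.5% of the summed CPM of the family, led by ugt-29 with 9.4% and ugt-26 with 7.37%. Exon length varied far less, from 1542 to 2909 bases, with a median of 1708.

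**Figure D1:**
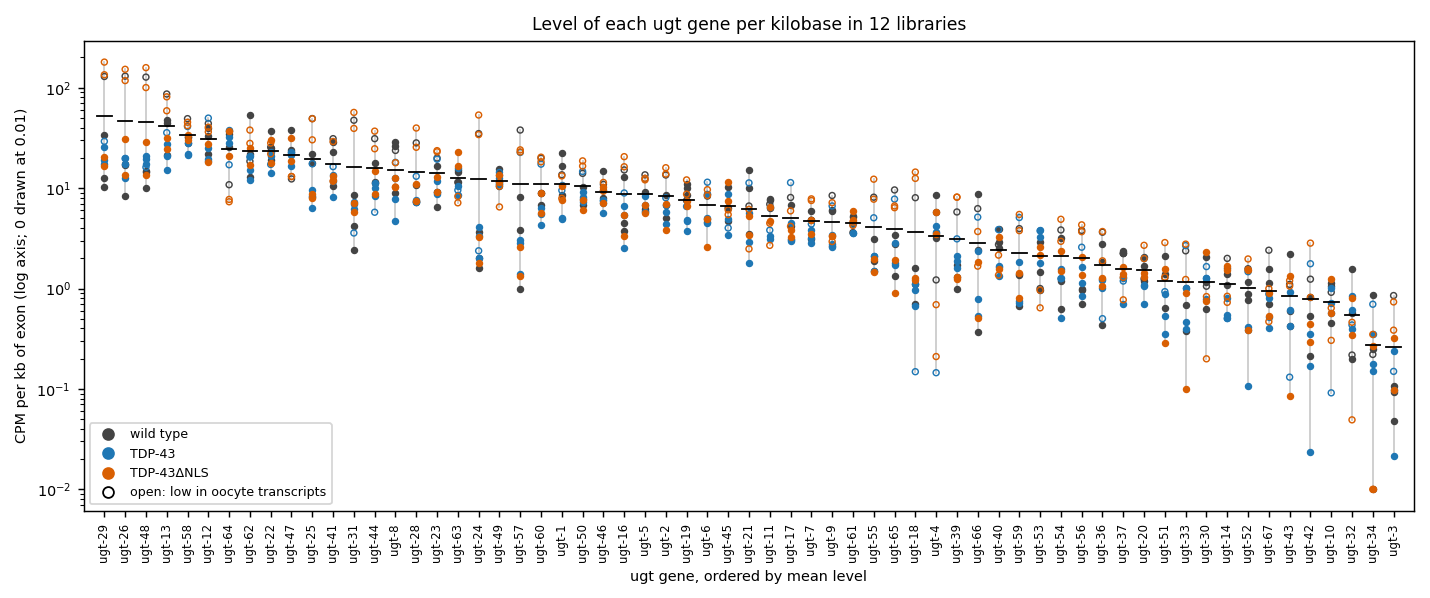
Level of each of the 63 ugt genes in CPM per kilobase of exon (log axis), ordered by mean, with 1 point per library. The means fall from 52.4 for ugt-29 to 0.262 for the lowest member, and the spread of single genes over libraries is 17.4-fold for ugt-29 and 2.28-fold for ugt-58.

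The count rule separated genes at the floor of detection. Just inside it, ugt-3 reached 10 counts in 5 libraries, ugt-34 in 7 and ugt-42 in 9. Just outside, ugt-27 did so in 3 libraries, ugt-35 in 1 and ugt-15 and ugt-38 in none. The counts of ugt-27 in wild type replicates 1 to 4 were 8, 9, 3 and 39, those in TDP-43 were 4, 5, 1 and 6, and those in TDP-43ΔNLS were 7, 5, 66 and 58. The 3 libraries that passed for ugt-27 were wild type replicate 4 and TDP-43ΔNLS replicates 3 and 4, all low in oocyte transcripts, and TDP-43 replicate 4 was not among them. For ugt-38 the counts were 0 in all libraries except TDP-43 replicate 1 with 4 and TDP-43ΔNLS replicate 4 with 1.

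That grouping of libraries recurred across the family. In 13 of the 63 members (20.6%), wild type replicate 4 and TDP-43ΔNLS replicates 3 and 4 all lay above the 8 libraries rich in oocyte transcripts, while TDP-43 replicate 4 did not, an arrangement shown by 5.74% of all genes tested. It was most marked in ugt-24, which was at 101 CPM in wild type replicate 4 and at 98.95 and 155 CPM in TDP-43ΔNLS replicates 3 and 4. TDP-43 replicate 4 was at 6.89 CPM, inside the range of 4.65 to 11.8 CPM of the other 8 libraries. For ugt-18 the same 3 libraries were at 13.6 to 24.5 CPM, TDP-43 replicate 4 was at 0.252 CPM and the other 8 were at 1.13 to 2.70 CPM. The abundant member ugt-29 was at 283 to 393 CPM in those 3, at 63.8 CPM in TDP-43 replicate 4 and at 22.6 to 73.4 CPM in the rest. The other ten members of this kind were ugt-2, ugt-3, ugt-13, ugt-16, ugt-25, ugt-26, ugt-31, ugt-44, ugt-48 and ugt-52. These classes were drawn up after the values had been seen and carry no test.

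A subset of 6 genes (ugt-18, ugt-24, ugt-26, ugt-29, ugt-31 and ugt-48), in which the lowest of the 3 libraries was at least 2 times the highest of the other 8, accounted for a large share of the family's RNA in the libraries concerned. They held 42.4% of the summed ugt CPM in wild type replicate 4 and 41.7% and 53% in TDP-43ΔNLS replicates 3 and 4. Their share was 13% in TDP-43 replicate 4 and 7.64% to 20.7% in the other 8 libraries. These genes were chosen for that arrangement of libraries, so the shares describe its size and support nothing further. In some tissue markers, which were not used to choose them, TDP-43 replicate 4 also stood apart from wild type replicate 4 and TDP-43ΔNLS replicates 3 and 4. Its mean log2 CPM was 5.19 for 9 intestine genes, against 5.91, 6.25 and 6.08 in those libraries, and 7.15 for 6 hypodermis genes, against 6.71, 6.41 and 6.85. Its mean for 6 body wall muscle genes was 10.28, against 9.81, 9.64 and 9.56. For 6 neuron genes it was 6.70, against 6.90, 6.91 and 6.86. For 6 pharynx genes it lay among them, at 6.82 against 7.27, 6.92 and 6.52. So did col-19, at 43.6 CPM against 34.9, 1.24 and 481 CPM. TDP-43 replicate 4 had the highest mlt-10 level of all libraries, 180.0 CPM. The cuticle collagen rol-6, itself among those hypodermis genes, was at 610 CPM, against 312, 379 and 337 CPM. The part of these differences in the ugt levels was not tested.

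Other members behaved differently in the same libraries. In 13 members (20.6%, against 22.3% of all genes tested) all 4 libraries low in oocyte transcripts, TDP-43 replicate 4 included, lay above the other 8. In ugt-57, whose highest library exceeded its lowest 38.1-fold, TDP-43 replicate 4 was at 44.1 CPM, the other three at 44.6 to 73.8 CPM and the remaining 8 at 1.94 to 16.04 CPM. In ugt-60 the 4 libraries were at 29.8 to 34.97 CPM and the other 8 at 7.36 to 15.5 CPM. The reverse, all 4 below the other 8, was found for ugt-4 and ugt-64, which is 3.17% of members against 24.6% of all genes tested. The level of ugt-4 was 0.252 to 2.12 CPM in the 4 and 5.54 to 14.8 CPM in the 8. In 33 members (52.4%, against 43.3% of all genes tested) the libraries were interleaved.

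**Figure D2:**
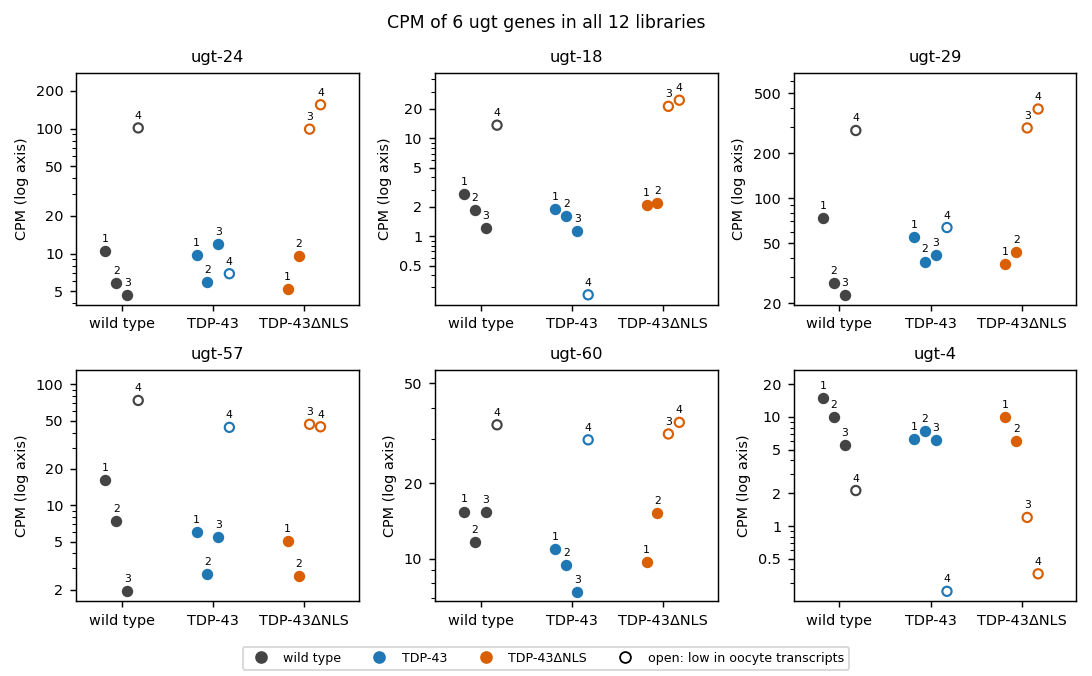
CPM (log axis) of 6 ugt genes in every library, by strain, with replicate numbers beside the points and open points for the 4 libraries low in oocyte transcripts. In ugt-24, ugt-18 and ugt-29 wild type replicate 4 and TDP-43ΔNLS replicates 3 and 4 are high and TDP-43 replicate 4 is not; in ugt-57 and ugt-60 all 4 are high, and in ugt-4 all 4 are low.

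Summed over the 63 members, the family took 0.0689% to 0.239% of counts. The sum was 1310, 934, 745 and 2204 CPM in wild type replicates 1 to 4, 1298 ± 648 CPM on average (SD, n = 4). It was 810, 755, 660 and 1082 CPM in TDP-43, on average 827 ± 181 CPM. In TDP-43ΔNLS it was 862, 855, 2086 and 2297 CPM, on average 1525 ± 774 CPM. The high sums were those of the libraries low in oocyte transcripts, and in each of the 3 strains these were higher than all the others of their strain. With the 6 genes left out, the sum of the other 57 members lay between 654 and 1269 CPM in wild type, 523 and 941 CPM in TDP-43, and 682 and 1217 CPM in TDP-43ΔNLS, so the groups overlapped on either count. TDP-43 replicate 3 had the lowest level of 16 of the 63 members and the highest of 0. TDP-43ΔNLS replicates 3 and 4 had the highest of 13 each, and wild type replicates 1 and 4 of 12 and 11.

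**Figure D3:**
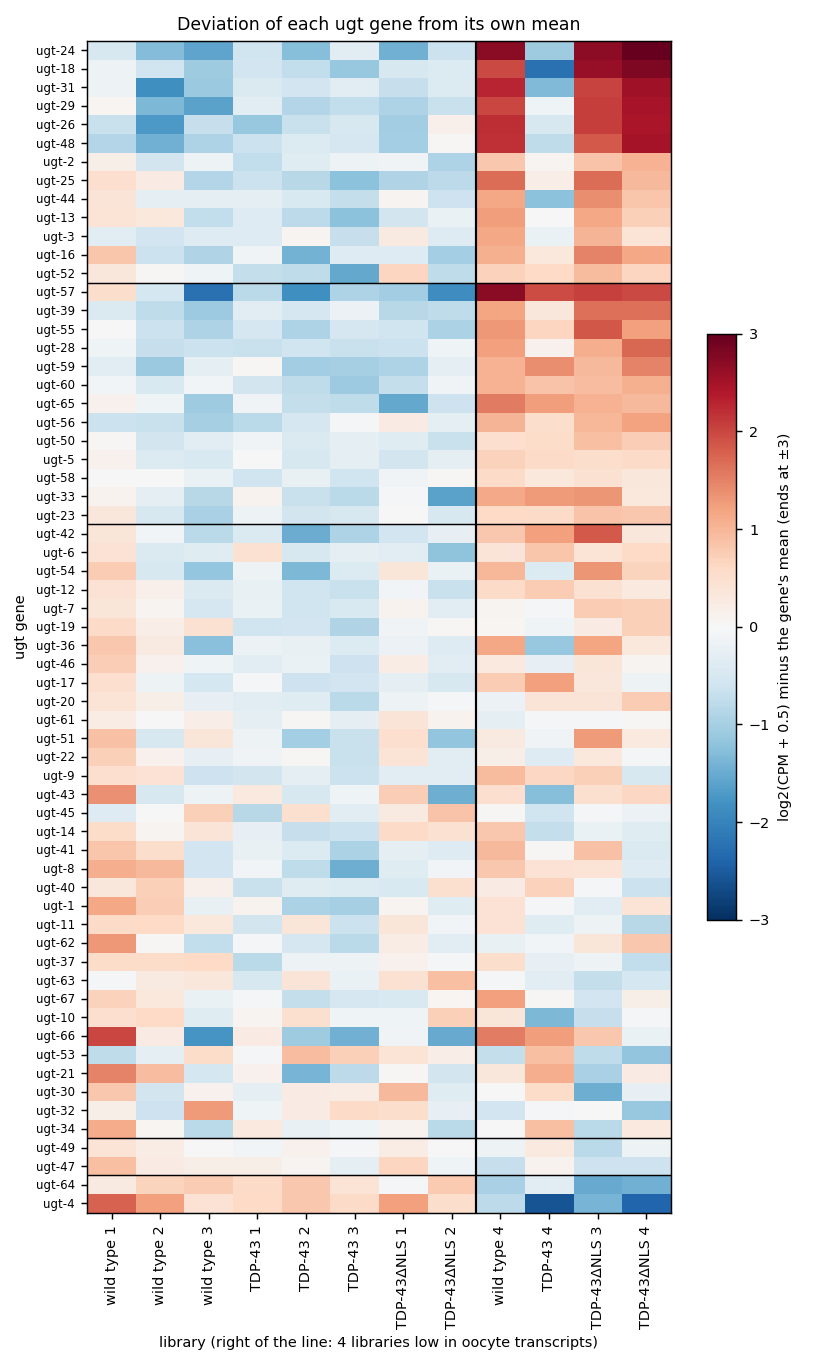
Level of each ugt gene in each of the 12 libraries as log2(CPM + 0.5) minus the gene's mean over libraries (colours end at 3 in either direction), with the 4 libraries low in oocyte transcripts right of the line and genes grouped by how those libraries lie relative to the other 8. Wild type replicate 4 and TDP-43ΔNLS replicates 3 and 4 are high in the first class of 13 genes, in which TDP-43 replicate 4 is not.

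The comparison of TDP-43 with wild type asked what neuronal TDP-43 does to the worm's transcripts. Most ugt genes had lower mean levels in the TDP-43 strain, but no member passed the threshold. Of 63 members, 55 (87.3%) had a negative log2 fold change, against 48.1% of all genes tested, and the median was -0.58 (quartiles -1.01 and -0.22), against 0.02 over all genes tested. In edgeR's quasi-likelihood test with Benjamini-Hochberg adjustment over 16637 genes, 0 members passed an adjusted p of 0.05 in either direction, as against 0.00601% of all genes passing as lower and 0% as higher. At an unadjusted p under 0.05, 8 members (12.7%) were lower and 0 higher, against 1.37% and 0.457% of all genes. DESeq2 and limma voom also called 0 members, with 11 and 8 at an unadjusted p under 0.05, of 456 and 327 genes in all, against 304 in edgeR. The 8 members with a positive value were ugt-6, ugt-30, ugt-33, ugt-34, ugt-50, ugt-53, ugt-59 and ugt-64. In whole-animal RNA, fewer cells of a type and less RNA per cell cannot be told apart.

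Members whose libraries did not overlap between the strains numbered 4 (6.35%), all lower in TDP-43, against 1.11% of all genes tested that were lower and 0.541% that were higher. The weakly expressed ugt-14 was at 2.70, 1.83, 2.35 and 3.34 CPM in wild type replicates 1 to 4 and at 1.350, 0.855, 0.911 and 0.841 CPM in TDP-43. Its log2 fold change was -1.36 ± 0.41 (SE; edgeR, unadjusted p = 0.00631, adjusted p = 1). All 4 TDP-43 libraries were below all wild type libraries, and the 2 TDP-43ΔNLS libraries rich in oocyte transcripts, at 2.78 and 2.54 CPM, lay within the wild type range. TDP-43ΔNLS replicates 3 and 4, at 1.40 and 1.22 CPM, were below every wild type library.

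The tightest wild type values in this set belonged to ugt-37, at 3.95, 3.94, 4.08 and 3.88 CPM. In TDP-43 it was at 1.23, 2.24, 2.22 and 2.06 CPM, a log2 fold change of -1.03 ± 0.35 (unadjusted p = 0.0129, adjusted p = 1 in edgeR). All transgenic libraries, of both strains, were below the wild type ones. The annotated span of ugt-37 overlaps that of ugt-40 on the same strand at one end, and reads in the overlap could have been counted in either gene. For ugt-19 the wild type libraries were at 18.4, 14.3, 16.9 and 12.7 CPM and the TDP-43 libraries at 7.98, 8.14, 6.38 and 11.1 CPM. The log2 fold change of ugt-19 was -0.89 ± 0.29 (unadjusted p = 0.0106, adjusted p = 1 in edgeR). Here the highest TDP-43 library, replicate 4, came close to the lowest wild type library, also a replicate 4.

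The fourth gene, ugt-46, is the longest member and lies on chromosome X. It was at 43.0, 27.9, 23.2 and 31.7 CPM in wild type and at 20.6, 22.2, 16.5 and 21.7 CPM in TDP-43, a log2 fold change of -0.64 ± 0.27 (unadjusted p = 0.0355, adjusted p = 1 in edgeR). The groups were separated by the narrow gap between wild type replicate 3 and TDP-43 replicate 2. The other four members at an unadjusted p under 0.05 were ugt-1, ugt-8, ugt-11 and ugt-67, whose libraries overlapped. The largest of these by level, ugt-8, was at 50.7, 46.3, 15.6 and 41.7 CPM in wild type and at 22.2, 13.6, 8.23 and 31.7 CPM in TDP-43. Wild type replicate 3 was low here, below 2 of the TDP-43 libraries. For ugt-1 the wild type values were 39.1, 28.9, 14.8 and 23.4 CPM and the TDP-43 values 18.7, 8.63, 8.45 and 16.4 CPM, with wild type replicate 3 again inside the TDP-43 range.

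The member ugt-22, which has been linked to the response to the anthelmintic albendazole, was expressed at 23.4 CPM per kilobase. It was at 82.8, 55.3, 42.5 and 56.7 CPM in wild type, at 46.5, 51.1, 31.3 and 38.2 CPM in TDP-43 and at 67.3, 39.9, 62.4 and 48.7 CPM in TDP-43ΔNLS. The strains overlapped, and the log2 fold changes against wild type were -0.51 ± 0.28 for TDP-43 and -0.12 ± 0.28 for TDP-43ΔNLS. Among the members with a positive value in TDP-43, ugt-53 had the highest log2 fold change, 1.00 ± 0.54 (unadjusted p = 0.0868 in edgeR). Its wild type libraries, at 1.53, 2.32, 4.55 and 1.58 CPM, overlapped the TDP-43 ones at 2.87, 6.02, 5.14 and 5.93 CPM.

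**Figure D4:**
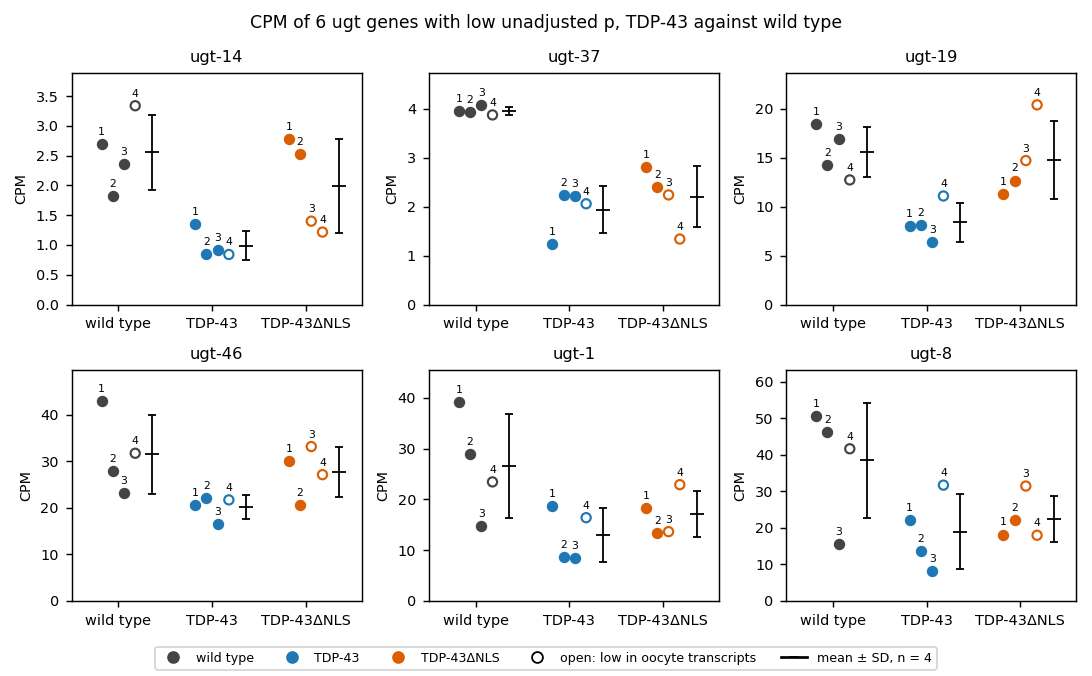
CPM of 6 ugt genes with a low unadjusted p for TDP-43 against wild type, by strain, with replicate numbers, the mean and the SD (n = 4), and open points for libraries low in oocyte transcripts. All TDP-43 libraries lie below all wild type libraries for ugt-14, ugt-37, ugt-19 and ugt-46, and the groups overlap for ugt-1 and ugt-8.

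The direction over the family was the same with the separated libraries set aside, and the size of the median depended on them. Without the 4 libraries low in oocyte transcripts, which left 3 wild type and 3 TDP-43 libraries and 62 members tested, 50 members (80.6%) were negative against 49.7% of all genes, with a median of -0.45. There, 14 members (22.6%) were lower at an unadjusted p under 0.05, against 3.86% of all genes, and 0 were higher, against 2.4%. The adjusted threshold was passed by 0 members, against 0.0119% of all genes as lower and 0.0416% as higher. Without overlap, 10 members (16.1%) were lower, against 7.44%, and 1, ugt-48, was higher, against 4.66%. In a fit over all 12 libraries with a term for the 4 libraries, 55 members were again negative, the median was -0.45 and 15 members (23.8%) were lower at an unadjusted p under 0.05, against 4.41% of all genes, with 48.9% of all genes negative. In that fit 1 member, ugt-53, was higher, against 1.86% of all genes. The adjusted threshold was passed by 0 members, against 0.0481% of all genes in each direction. The lowest adjusted p of a member in that fit was 0.384, for ugt-19 (log2 fold change -0.93 ± 0.23). In that fit ugt-13 was at -0.94 ± 0.27 and ugt-25 at -1.08 ± 0.32, where the fit without the term gave -1.01 ± 0.48 and -1.21 ± 0.67. The labels state no pairing of replicates. A fit of only wild type and TDP-43 with the replicate number as a block called 22 genes and 0 members. It had 15 members at an unadjusted p under 0.05 of 929 genes in all, against 9 of 295 in those groups without the block. With the block over all 3 groups there were 7 members of 398 genes, against 8 of 304 without it. Leaving out wild type replicate 4 gave a median of -0.32 with 41 negative members, compared with 55. The count of 8 at an unadjusted p under 0.05 became 3, 14 and 4 when wild type replicate 1, 3 or 4 was left out, while that of all genes, 304, was lower without replicate 1 or 4 and became 437 without replicate 3. It became 5, 5, 3 and 12 when TDP-43 replicate 1, 2, 3 or 4 was left out, with 257, 219, 200 and 672 genes in all.

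Intestine markers also had lower means in TDP-43. Of the 9 intestine genes tested, 9 were negative in TDP-43 against wild type, with a median of -0.28, and 0 passed the threshold. The intestine genes summed to between 963 and 2883 CPM in wild type libraries and between 1017 and 1751 CPM in TDP-43 libraries, so the ranges overlapped. The 6 neuron genes and the 6 pharynx genes were also all negative, with medians of -0.33 and -0.78, whereas the 6 hypodermis genes were all positive, with a median of 0.34. The part of these tissues in the ugt levels was not tested.

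In TDP-43ΔNLS against wild type the family showed no common direction. Of 63 members, 31 (49.2%) were negative, against 50.8% of all genes tested, and the median log2 fold change was 0.01, against -0.01 over all genes. The adjusted threshold was passed by 0 members in either direction in edgeR, as by 0% of all genes, and by 0 members in DESeq2. At an unadjusted p under 0.05, 1 member was lower and 0 higher (1.59% and 0%, against 0.745% and 0.703% of all genes), and DESeq2 gave 2 in either direction, of 391 genes in all, against 241 in edgeR. That member was ugt-37, at 2.82, 2.41, 2.24 and 1.34 CPM in TDP-43ΔNLS, a log2 fold change of -0.85 ± 0.35 (unadjusted p = 0.0331, adjusted p = 1 in edgeR). It was also the only member whose libraries did not overlap, against 0.854% of all genes tested that were lower without overlap and 0.469% that were higher. This comparison shares the wild type libraries with the one above, so low values of ugt-37 in both are not separate observations. Of the 9 intestine genes, 4 were negative and 5 positive here, with a median of 0.14.

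The next members by p were ugt-67 at -0.996 ± 0.49, ugt-11 at -0.63 ± 0.35 and ugt-21 at -1.03 ± 0.61 on the log2 scale. All overlapped between the groups. Of the TDP-43ΔNLS libraries 2 of 4 were low in oocyte transcripts, against 1 of 4 in wild type. Without the 4 such libraries, 44 of 62 members (71%) were negative in TDP-43ΔNLS, against 49.2% of all genes, with a median of -0.27, and at an unadjusted p under 0.05 ugt-25 was lower and ugt-48 higher (1.61% each, against 3.18% and 1.27% of all genes). With a term for them, 43 of 63 members (68.3%) were negative, against 48.5% of all genes, with a median of -0.19, and ugt-8, ugt-37 and ugt-67 were lower at an unadjusted p under 0.05 (4.76%, against 3.93% of all genes). Leaving out 1 library at a time moved the median between -0.12 and 0.13. The single member at an unadjusted p under 0.05 became 0, 0, 3 and 10 members when wild type replicate 1, 2, 3 or 4 was left out, while the count of all genes went from 241 to 179, 151, 245 and 676. It became 2, 2 and 0 when TDP-43ΔNLS replicate 1, 2 or 4 was left out, with 326, 295 and 198 genes in all.

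The direct comparison of the strains, TDP-43ΔNLS against TDP-43, set the strain with the altered protein beside that with the unaltered one. These strains also differ in their marker, so the alteration and the marker cannot be told apart. The groups were also unequal in oocyte transcripts, which were low in TDP-43ΔNLS replicates 3 and 4 and in TDP-43 replicate 4. Most members were higher in TDP-43ΔNLS, again with none past the threshold. Of 63 members, 50 (79.4%) were positive, against 49.5% of all genes tested, with a median log2 fold change of 0.45, against 0.00 over all genes to 2 decimals. In edgeR 0 members passed the adjusted threshold, as 0% of all genes did in either direction. DESeq2 called 8 genes and 0 members, with 13 members at an unadjusted p under 0.05 of 708 genes in all, against 427 in edgeR. Fewer members were at that level in limma voom, 4 of 416 genes, and in edgeR with the replicate number as a block, 5 of 524. Both called 0 members. At an unadjusted p under 0.05, edgeR gave 9 members higher (14.3%) and 0 lower, against 2.05% and 0.517% of all genes. The libraries did not overlap for 2 of them, ugt-18 and ugt-19 (3.17%, against 1.04% of all genes that were higher without overlap), and 0 members were lower without overlap, against 0.733%.

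For ugt-18, the TDP-43ΔNLS libraries were at 2.08, 2.17, 21.3 and 24.5 CPM and the TDP-43 libraries at 1.88, 1.63, 1.13 and 0.252 CPM. The log2 fold change was 3.35 ± 1.08 (unadjusted p = 0.00953, adjusted p = 0.998 in edgeR). The groups did not overlap, but the high mean came from TDP-43ΔNLS replicates 3 and 4, and replicates 1 and 2 lay just above the TDP-43 libraries. For ugt-19, at 11.3, 12.7, 14.7 and 20.4 CPM in TDP-43ΔNLS, the log2 fold change was 0.82 ± 0.29 (unadjusted p = 0.0171, adjusted p = 0.998 in edgeR). Its lowest TDP-43ΔNLS library and its highest TDP-43 library, at 11.3 and 11.1 CPM, almost met. The other seven members at an unadjusted p under 0.05 were ugt-14, ugt-24, ugt-26, ugt-31, ugt-44, ugt-48 and ugt-54.

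Of those 9 members, 6 belonged to the class above in which TDP-43 replicate 4 was unlike the other three libraries low in oocyte transcripts, namely ugt-18, ugt-24, ugt-26, ugt-31, ugt-44 and ugt-48. That class was defined by high values in TDP-43ΔNLS replicates 3 and 4 but not in TDP-43 replicate 4. The comparison uses the same values, so the overlap supports nothing further. For ugt-24 the log2 fold change was 2.97 ± 1.21 (unadjusted p = 0.031, adjusted p = 0.998 in edgeR), from 5.21, 9.49, 98.95 and 155 CPM in TDP-43ΔNLS and 9.70, 5.90, 11.8 and 6.89 CPM in TDP-43. Without the 4 libraries its log2 fold change had the opposite sign, -0.35. Over the family, 43 of 62 members (69.4%) were positive without the 4 libraries, against 49.2% of all genes, with a median of 0.27, and 4 members (ugt-14, ugt-19, ugt-52 and ugt-63; 6.45%) were higher at an unadjusted p under 0.05 and 0 lower, against 1.54% and 1.46% of all genes. In the fit with a term for the 4 libraries, the median was 0.33, with ugt-14, ugt-19 and ugt-28 higher and ugt-53 and ugt-64 lower at an unadjusted p under 0.05 (4.76% and 3.17%, against 2.22% and 2.19% of all genes). Leaving out TDP-43 replicate 4 gave a median of 0.76, and the all-gene median then shifted to 0.11. The count of 9 at an unadjusted p under 0.05 became 4, 4 and 3 when TDP-43 replicate 1, 2 or 3 was left out, while that of all genes went from 427 to 339, 277 and 268. It became 15, 3 and 3 when TDP-43ΔNLS replicate 2, 3 or 4 was left out, with 804, 241 and 229 genes in all. All 9 intestine genes were positive in this comparison, with a median of 0.60 and 0 past the threshold. The 6 pharynx genes and the 6 neuron genes were also all positive, with medians of 0.60 and 0.39. Of the 6 hypodermis and 6 body wall muscle genes, 5 of each were negative, with medians of -0.08 and -0.35. The part of these tissues in the ugt levels was not tested.

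The members at an unadjusted p under 0.05 both here and in TDP-43 against wild type were ugt-14 and ugt-19. Those comparisons share the TDP-43 libraries. For ugt-19 the log2 fold change was -0.89 for TDP-43 against wild type, 0.82 for TDP-43ΔNLS against TDP-43 and -0.08 ± 0.29 for TDP-43ΔNLS against wild type, whose means were 14.8 and 15.6 CPM. For ugt-14 the corresponding values were -1.36 and 1.00 ± 0.41, with means of 1.98 CPM in TDP-43ΔNLS and 2.55 CPM in wild type. The TDP-43ΔNLS libraries of ugt-14 fell into 2.78 and 2.54 CPM in replicates 1 and 2 and 1.40 and 1.22 CPM in replicates 3 and 4, and its highest TDP-43 library was at 1.350 CPM.

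**Figure D5:**
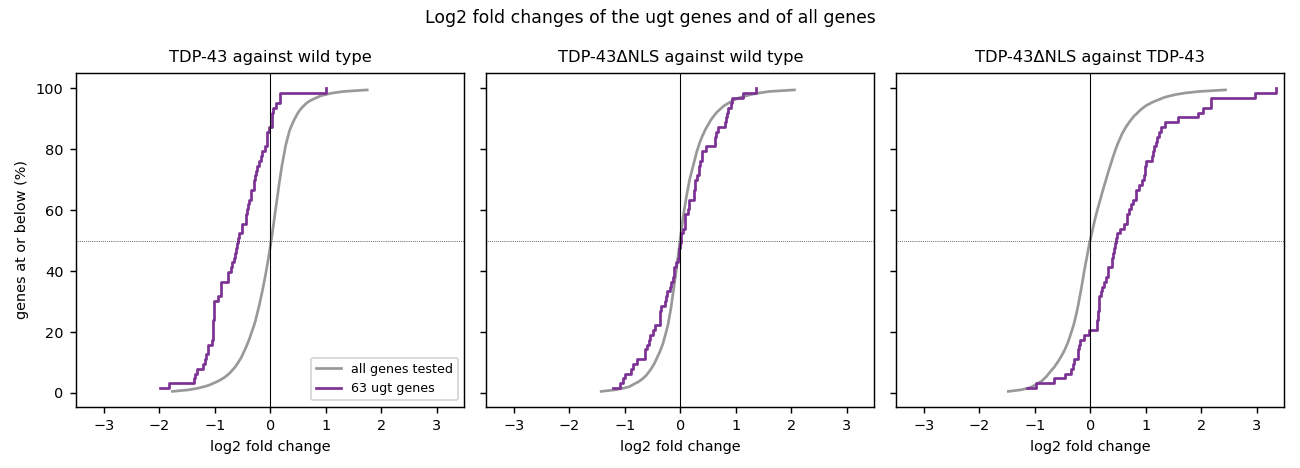
Cumulative share of genes by log2 fold change for the 63 ugt genes and all 16637 genes tested in each of the 3 comparisons. The ugt curve lies to the left for TDP-43 against wild type (median -0.58 against 0.02), close to all genes for TDP-43ΔNLS against wild type (0.01 against -0.01) and to the right for TDP-43ΔNLS against TDP-43 (0.45), with 0 members past the adjusted threshold in each.

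The ugt genes were unevenly placed in the genome, as is usual for expanded gene families of this worm. In the WBcel235 assembly 42 of the 67 named genes (62.7%) were on chromosome V, which holds 25% of annotated protein-coding genes. There were 12 on chromosome IV, 5 on I, 4 on X, 3 on III and 1 on II. Runs of at least 3 ugt genes, each within 10000 bases of the next, numbered 5 and held 25 genes. Neighbours in a run may share sequence, and the treatment of reads that match several places is not given in the sources used here, so counts within a run may have been split between copies.

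The longest run held 8 genes, ugt-12, ugt-11, ugt-9, ugt-10, ugt-67, ugt-8, ugt-14 and ugt-13 in order along chromosome V from 4887165 to 4911399. All 8 were members. Their log2 fold changes were negative for all 8 in TDP-43 against wild type, with a median of -0.89, and for all 8 in TDP-43ΔNLS against wild type, with a median of -0.41, 2 comparisons that share the wild type libraries. None passed the adjusted threshold. At the ends of the run, ugt-12 was at 67.2, 55.5, 36.8 and 74.6 CPM in wild type and at 42.4, 32.8, 31.3 and 84.4 CPM in TDP-43, where replicate 4 was above every wild type library. For ugt-13 the values were 77.8, 72.0, 34.5 and 140 CPM in wild type and 44.7, 33.7, 24.7 and 57.8 CPM in TDP-43. Levels within the run were not alike, from 0.726 to 41.3 CPM per kilobase.

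A second run on chromosome V, from 7139475 to 7169281, held ugt-40, ugt-37, ugt-38, ugt-39, ugt-41 and ugt-36. Its 5 members were all negative in TDP-43 against wild type, with a median of -0.90, and 4 of 5 were negative in TDP-43ΔNLS, with a median of -0.49. In the run on chromosome I (ugt-26, ugt-27, ugt-28 and ugt-25), all 3 members were negative in TDP-43, with a median of -1.21, and 1 of 3 in TDP-43ΔNLS, with a median of 0.64. The lead gene of that run, ugt-26, was at 33.6, 15.98, 32.9 and 252 CPM in wild type and at 24.2, 33.7, 38.6 and 38.0 CPM in TDP-43, and its log2 fold change was positive without the 4 libraries low in oocyte transcripts. The same library was high for its neighbours ugt-28, at 18.7, 12.6, 13.0 and 48.9 CPM in wild type, and ugt-25, at 35.9, 29.9, 13.5 and 81.8 CPM.

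The remaining 2 runs lay close together on chromosome V. The run from 12790676 to 12800271 (ugt-5, ugt-4, ugt-6 and ugt-3) had 3 of 4 members negative in TDP-43, with a median of -0.38, and 2 of 4 in TDP-43ΔNLS, with a median of 0.02. The run from 12820260 to 12830114 (ugt-18, ugt-16 and ugt-15) had 2 of 2 members negative in TDP-43 and 0 of 2 in TDP-43ΔNLS, with medians of -1.31 and 0.85. Adjacent genes of a run could differ in the libraries that stood apart. In ugt-5 all 4 libraries low in oocyte transcripts were at 21.5 to 24.1 CPM, above the other 8 at 9.95 to 16.2 CPM, and in ugt-4, the next gene, all 4 were below the others. A few members overlap an annotated gene on the other strand, among them ugt-48 (cft-1), ugt-59 (sir-2.1), ugt-25 (mlst-8), ugt-50 (nhr-26) and ugt-65 (col-130), and the strand setting of the counting is not given, so their counts could include the partner's reads.

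Genes around the ugt step were examined by role. The donor supply, 11 tested genes that make or carry UDP-sugars, had 2 negative and 9 positive members in TDP-43 against wild type, with a median of 0.13, and 9 negative and 2 positive in TDP-43ΔNLS, with a median of -0.09. None passed the adjusted threshold in any comparison, and gale-1, the UDP-galactose epimerase, was at 0.21 ± 0.20 and -0.07 ± 0.20. Regulators of the xenobiotic response, 16 genes, had 15 negative members in TDP-43 with a median of -0.08, and 4 negative in TDP-43ΔNLS with a median of 0.12. The intestinal GATA factor elt-2 was at -0.18 ± 0.57 and 0.59 ± 0.57. With a term for the 4 libraries low in oocyte transcripts, the donor genes still had 2 negative and 9 positive members in TDP-43 (median 0.12). In TDP-43ΔNLS they then had 4 negative and 7 positive (median 0.12), so their direction there depended on the term. In that fit 14 regulators were negative in TDP-43 (median -0.06). In TDP-43ΔNLS 8 were negative and 8 positive (median 0).

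The cytochromes P450, which oxidize compounds before conjugation, had 65 of 74 genes tested. In TDP-43 against wild type 46 were negative, with a median of -0.34, 0 passed the adjusted threshold and 10 were lower at an unadjusted p under 0.05, where 1.37% of all genes tested were. The member with the lowest p was cyp-34A9, at 11.5, 12.2, 9.94 and 12.9 CPM in wild type replicates 1 to 4 and at 7.24, 4.88, 3.97 and 4.96 CPM in TDP-43. Its log2 fold change was -1.15 ± 0.29 (unadjusted p = 0.00199, adjusted p = 1 in edgeR). In TDP-43ΔNLS it was at 0.03 ± 0.29, and 31 of the 65 genes were negative, with a median of 0.03 and 5 lower at an unadjusted p under 0.05, where 0.745% of all genes tested were. In TDP-43ΔNLS against TDP-43, 48 of the 65 were positive, with a median of 0.36, where 49.5% of all genes tested were positive. At an unadjusted p under 0.05, 6 were higher and 0 lower, where 2.05% and 0.517% of all genes tested were.

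Glutathione S-transferases, the other large conjugating family, had 43 of 49 genes tested, of which 32 were negative in TDP-43, with a median of -0.18, and 18 in TDP-43ΔNLS, with a median of 0.20. At an unadjusted p under 0.05, 1 of the 43 was lower in TDP-43 (gst-41, -1.17 ± 0.38), where 1.37% of all genes tested were. In TDP-43ΔNLS 1 of the 43 was higher (gst-15, 1.05 ± 0.37), where 0.703% of all genes tested were. Of 30 dhs short-chain dehydrogenase genes, 19 were negative in TDP-43, with a median of -0.05, close to that of all genes. Of 22 ABC exporters, 19 were negative in TDP-43, with a median of -0.48, and 15 were positive in TDP-43ΔNLS, with a median of 0.17. All had 0 members past the adjusted threshold in all 3 comparisons. With a term for the 4 libraries low in oocyte transcripts, 17 exporters were negative in TDP-43 (median -0.185). In TDP-43ΔNLS 12 were then negative and 10 positive (median -0.03). Of the glutathione S-transferases, 32 were negative in TDP-43 in that fit (median -0.21) and 22 in TDP-43ΔNLS (median -0.03). Of the cytochromes P450, 50 were negative in TDP-43 (median -0.28) and 37 in TDP-43ΔNLS (median -0.03).

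The 3 of the 22 exporters with the lowest p in any comparison were pgp-5, pgp-6 and pgp-7, all P-glycoproteins. They had the libraries arranged as in ugt-24. For pgp-6, wild type replicate 4 was at 118 CPM and TDP-43ΔNLS replicates 3 and 4 at 116 and 144 CPM, whereas TDP-43 replicate 4 was at 8.41 CPM. The remaining libraries were at 4.11 to 12.1 CPM. The log2 fold changes of TDP-43ΔNLS against TDP-43 were 2.26 ± 1.00 for pgp-5, 2.71 ± 1.19 for pgp-6 and 3.40 ± 1.48 for pgp-7 (adjusted p = 0.998 each in edgeR). These values, and the choice of the 3 genes, rest on the same libraries as the ugt genes of that class, so the arrangement supports nothing further. Exporters with it were not counted, and it was not shared by all. The exporter mrp-4 was at 7.78 to 21.4 CPM in the 4 libraries low in oocyte transcripts and at 101 to 268 CPM in the other 8.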

How the data were processed

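The authors deposited raw read counts per gene for 12 libraries of poly-A RNA, and every sample column was used (0 columns left out). Per the submitters' processing notes, STAR, featureCounts 2.20.0 and R 4.4.2 were used with WBcel235. For the annotation release, the strandedness of counting and multiply mapping reads, the setting is not given in the sources used here. Names, positions and exon lengths came from Ensembl release 115 of WBcel235, in which all 46926 identifiers were found. No sequence is shown, because no genome sequence was used here.

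In R 4.3.3, genes were filtered with filterByExpr (minimum count 10), which left 16637 genes with 99.9% of counts, scaled with TMM and tested with edgeR 4.0.16 (robust quasi-likelihood fit over all 12 libraries, no covariate). Adjusted p-values are Benjamini-Hochberg over all genes tested, with a threshold of 0.05. SE is the absolute log2 fold change divided by the square root of F. The common dispersion of the edgeR fit was 0.435. Its power to find changes of the size seen in the ugt genes was not tested. Alternatives were DESeq2 1.42.0, limma 3.58.1 (voom), other scalings and filters, only the groups compared, a replicate block, a term for (or removal of) the 4 libraries whose oocyte list averaged under 6 (log2 CPM), and each library left out.

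The members and the gene lists were chosen with earlier results of these data known, so no test was run over the members as a set. Genes were named by rule: the 4 members with the lowest p in each comparison and fit, the 5 highest per kilobase, members without overlap between groups, the ends of runs, the genes at the edge of the count rule, the 3 lowest p of each other list, and ugt-22. Genes of the library classes, of the interior of runs, and ugt-53, ugt-57, ugt-60 and mrp-4 were named after their values were seen. One planned list of dehydrogenases was narrowed to the dhs genes, because its name pattern also took unrelated genes.

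Whether replicates were separate cultures is not stated in the labels, and p-values then measure only the spread between these samples, which may be technical. The labels give replicate numbers but state no pairing. Deviations from the group means in same-numbered libraries of wild type and TDP-43 had correlations over genes of 0.229, 0.508, 0.501 and 0.825. TDP-43 replicates 1 and 2, however, correlated best with wild type replicates 2 and 3. The highest value joins 2 libraries low in oocyte transcripts. The replicate number was used as a block only in alternative fits, and these correlations do not establish pairs. TDP-43ΔNLS replicate 3 gave -0.629 and -0.562 with the same number of wild type and TDP-43. Replicates 1, 2 and 4 of TDP-43ΔNLS gave 0.304, 0.663 and 0.715 with the same number of wild type. No pair of libraries within a group agreed within sampling noise.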

Additional observations from a re-analysis of the deposited data

Results flagged for a closer look

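In 114 groups of 4 libraries (the summed ugt level, the ugt genes named by rule, and ugt-53, ugt-57, ugt-60, cyp-34A9 and pgp-6, each in each strain), 17 had 1 library separated from the other three by more than Dixon's 95% limit for 4 values, where chance marks about 1 in 20 groups that are independent and not chosen by their values. Here the genes share libraries, and ugt-57, ugt-60 and pgp-6, which hold 4 of the marks, were added after their values were seen, so that rate is no measure for the count. Of these, 10 were wild type replicate 4, the only wild type library low in oocyte transcripts. In wild type replicate 4, ugt-26 was at 251.9 CPM against 15.98 to 33.6 CPM in the other three. There ugt-24 was at 101.2 CPM against 4.65 to 10.6 CPM, and ugt-48 at 207.2 CPM against 16.4 to 24.3 CPM. The exporter pgp-6 was at 117.9 CPM against 6.30 to 9.43 CPM. The same library had ugt-28 at 48.91 CPM, ugt-60 at 34.2 CPM, ugt-18 at 13.64 CPM, ugt-3 at 1.436 CPM, ugt-27 at 1.4 CPM and ugt-15 at 0.03589 CPM, the last being a single count.

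In TDP-43 replicate 4, ugt-57 was at 44.14 CPM against 2.69 to 5.98 CPM, ugt-60 was at 29.8 CPM against 7.36 to 10.9 CPM, ugt-28 was at 22.74 CPM against 12.7 to 13.4 CPM in the other three, and ugt-40 was at 6.684 CPM against 2.29 to 2.93 CPM. TDP-43 replicate 1 was high for ugt-14, at 1.350 CPM against 0.841 to 0.911 CPM, and still below every wild type library. In TDP-43ΔNLS, ugt-35 was at 0.4057 CPM in replicate 4 and ugt-15 at 0.2801 CPM in replicate 3, from 10 and 7 counts. Both genes are outside the count rule.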

How the results depend on the processing

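The number of ugt genes past the adjusted threshold was 0 in all 3 comparisons under every alternative run. For TDP-43 against wild type the member median ran from -0.849 to -0.317 over 24 alternatives and stayed negative; for TDP-43ΔNLS against TDP-43 it ran from 0.269 to 0.756 and stayed positive over 23; for TDP-43ΔNLS against wild type it ran from -0.269 to 0.13 and changed sign. The count of genes of any kind past the threshold moved more. For TDP-43 against wild type it was 1, and it was 21 with DESeq2, 16 with the term for the 4 libraries low in oocyte transcripts, 9 without them, 0 with upper-quartile scaling and 0 with the filter of 10 CPM in 4 libraries, which tested fewer genes. With the replicate number as a block it was 0 over all 3 groups. It was 22 with the block and only wild type and TDP-43, an alternative chosen after seeing the data. The block changed no call of a ugt gene. Leaving out 1 library gave 0 to 1. For TDP-43ΔNLS against wild type it was 0, and 16, 9 and 6 with DESeq2, the term and without the 4 libraries. For TDP-43ΔNLS against TDP-43 it was 0, and 8 and 1 with DESeq2 and the term. The cause of these differences was not tested.

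The filter of 10 CPM left 36 ugt genes, of which 33, 15 and 6 were negative in the 3 comparisons in the order above, with TDP-43ΔNLS against TDP-43 last. The term gave 20 negative members there, against 13. With 1 library left out, the negative count ran from 41 to 61 for TDP-43 against wild type, 26 to 39 for TDP-43ΔNLS against wild type and 9 to 18 for TDP-43ΔNLS against TDP-43. Of 23 values of single named genes, 20 kept their sign throughout. The exceptions were ugt-24 in TDP-43ΔNLS against TDP-43 (-0.349 without the 4 libraries), ugt-22 in TDP-43ΔNLS against wild type (0.053 without wild type replicate 1, with a range of -0.255 to 0.053 over the libraries left out) and ugt-65 in the same comparison (0.212 and 0.109 without TDP-43ΔNLS replicates 1 and 2, 0.647 without wild type replicate 4, from -0.116, with a lowest value of -0.487 over the libraries left out and -0.842 over all alternatives). Over all their alternatives, the adjusted p of these 3 values was at least 0.674, 0.911 and 0.851 in that order. Members at a few counts per library, such as ugt-3 and ugt-34, are limited by depth.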
